A study of Mus musculus with 6 samples.

Results

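The Siglec family of sialic acid-binding lectins was examined in CD11b-selected cells of the mouse cerebellum. It was taken as the rows of the deposited count table under 7 gene symbols, Siglec1, Siglech, Siglece, Siglecf, Siglecg, Cd33 and Cd22. All 7 were found among 23491 rows, and all 7 passed the filter on low counts that left 14727 genes for testing. The poly(I:C) group had 3 libraries and the saline group 3. Poly(I:C), a synthetic double-stranded RNA that mimics viral infection, was given by intraperitoneal injection, and every mouse of both groups was labelled Fmr1 knock out, a model of fragile X syndrome. No wild-type group was used here, the sources used here give no age, dose or interval after injection, and the labels do not say whether replicates were separate animals. The p-values therefore measure the spread between these libraries, which may be technical. CD11b is a surface protein of microglia that monocytes, neutrophils and other macrophages also carry.

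Siglecs are membrane receptors of the immunoglobulin superfamily that bind sialic acids, the sugars that cap glycans on vertebrate cells. Most carry inhibitory tyrosine motifs that recruit the phosphatases SHP-1 and SHP-2, while a few pair with the activating adaptor DAP12. Siglec1, or sialoadhesin, lacks inhibitory motifs and serves macrophages as an adhesion receptor that also captures enveloped viruses. Siglech, which pairs with DAP12, is widely used as a marker of mouse microglia.

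Library totals lay between 33710545 and 34899835 counts. Reads over Fmr1 were present in all libraries, at 43.9 to 62.6 CPM with poly(I:C) and 37.8 to 40.5 CPM with saline (edgeR adjusted p = 0.167). CPM are counts scaled to library size by TMM. The disrupted exon is not given, so the level checks neither genotype nor label. The 13 microglial markers with a row summed to between 34374 and 46754 CPM in poly(I:C) and between 44067 and 51019 CPM in saline, and each had counts. Some libraries stood apart. The 12 neutrophil markers summed to 2246, 484.3 and 566.9 CPM with poly(I:C) in replicates 1, 2 and 3 and to 20643, 2464 and 2386 CPM in saline replicates 1, 2 and 3, with 0 of 12 called in edgeR, 11 lower at an unadjusted p under 0.05 and a median log2 difference of −2.82. The 9 eosinophil markers summed to 32.1 to 153.6 CPM with poly(I:C) and to 967, 119.4 and 98.5 CPM in saline replicates 1, 2 and 3. The 9 choroid plexus markers summed to 19429, 7666 and 9325 CPM with poly(I:C) in replicates 1, 2 and 3 and to 4054, 8450 and 3959 CPM in saline replicates 1, 2 and 3, with 0 of 9 called in edgeR, 8 higher at an unadjusted p under 0.05 and a median log2 difference of 1.30. The 9 monocyte markers summed to 341.1 to 810.7 CPM with poly(I:C) and 443.7 to 2294 CPM with saline. The 10 plasmacytoid dendritic cell markers summed to 170.5 to 174.02 CPM with poly(I:C) and 190.1 to 203.8 CPM with saline. Most of that sum was the single gene Tcf4, at 150.2 to 151.9 CPM with poly(I:C) and 153.6 to 158.2 CPM with saline. The 7 oligodendrocyte markers summed to 107.4 to 119.2 CPM with poly(I:C) and 107.9 to 122.7 CPM with saline. Fewer cells of a type and less RNA per cell cannot be told apart in such bulk libraries.

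Upstream sequences are shown for the highly expressed Siglech, to give the letters searched for regulatory motifs, and for Cd33 and Siglecf, which shared a 16-base run. They are from RefSeq on build GRCm38.p6, whereas the counts were made on GRCm39, and exonic bases annotated by GENCODE M21 were left off. The Siglech sequence is chr7:55767934-55768177 on the plus strand. Capitals mark ACTTCC (the reverse complement of the ETS core GGAAGT bound by PU.1 and related factors), TTCTCTGAA (a match to the STAT-type letters TTCNNNGAA) and the E-box CACGTG. The Siglecf sequence is chr7:43351091-43351340 on the plus strand and the Cd33 sequence is chr7:43533172-43533364 on the minus strand, and in both the capitals mark the shared run AAAGTGGAAGTGTTTA.
Siglech: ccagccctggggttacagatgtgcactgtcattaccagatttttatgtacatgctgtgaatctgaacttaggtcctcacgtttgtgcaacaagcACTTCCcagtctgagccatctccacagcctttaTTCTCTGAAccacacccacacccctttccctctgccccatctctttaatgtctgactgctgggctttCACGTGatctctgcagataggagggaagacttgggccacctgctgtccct
Siglecf: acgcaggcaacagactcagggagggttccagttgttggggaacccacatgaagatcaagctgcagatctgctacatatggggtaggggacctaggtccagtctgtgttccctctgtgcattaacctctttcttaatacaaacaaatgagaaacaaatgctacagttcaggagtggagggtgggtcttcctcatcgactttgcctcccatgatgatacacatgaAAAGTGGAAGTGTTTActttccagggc
Cd33: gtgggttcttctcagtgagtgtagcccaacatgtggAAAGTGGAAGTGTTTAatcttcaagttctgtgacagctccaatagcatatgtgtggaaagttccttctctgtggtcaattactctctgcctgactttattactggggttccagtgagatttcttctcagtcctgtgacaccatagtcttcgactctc

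The 250 bases before the annotated start were searched on both strands for 6 of the members. Siglec1 had no upstream sequence in the source used and was not searched. The 6 searched members are those not called in edgeR. The letters of the interferon-stimulated response element (GAAA, any 2 bases, GAAA) were found in 0 of 6 members, against 2.98% of 32851 windows of all genes. They were found for 31 of the 103 genes called higher with poly(I:C) that had a window (30.1%), against 3.4% of 11432 tested genes with a window. GGAAGT was found in 3 of 6 members, Siglech, Siglecf and Cd33, and in 19.7% of all windows. TTCNNNGAA and CACGTG were each found in 1 member, Siglech, and in 7.02% and 6.02% of all windows. The ETS-IRF composite letters (GGAA, any 2 bases, GAAA), GAGGAAGT and TTGCGCAA were found in 0 of 6 members and in 2.3%, 2.44% and 0.164% of all windows. The run AAAGTGGAAGTGTTTA was looked for after the sequences were seen, and contains the GGAAGT of both genes. It began 27 bases before the Siglecf start and 157 bases before the Cd33 start, and occurred in 2 of 32851 windows, those of Siglecf and Cd33. Over the 15 pairs of members the longest shared run was between 7 and 16 bases, with 10 bases for Siglece and Siglecg as the next longest. These matches describe letters only.

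Poly(I:C) was compared with saline to see which Siglec transcripts differ after a viral mimic. Siglec1 was the 1 member of 7 that rose, 4.01-fold (95% interval 2.65 to 6.07), and 0 members fell. Over all tested genes 0.957% were called in either direction, 0.883% higher and 0.0747% lower. The test was the quasi-likelihood test of edgeR with p-values adjusted by Benjamini and Hochberg, at an adjusted p under 0.05. At an unadjusted p under 0.05 the members also numbered 1 higher and 0 lower, against 21.3% of all tested genes in either direction, 10.5% higher and 10.8% lower. DESeq2 and limma-voom likewise called 1 higher and 0 lower. Of the 14727 tested genes DESeq2 called 577 higher and 566 lower, and limma-voom 1268 higher and 1608 lower. The median log2 difference of the 7 members was −0.05, against 0.01 over all tested genes. Libraries of the groups did not overlap for 2 members, Siglec1 and Siglecf, which compares with 28.4% of all tested genes.

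Siglec1 had 12132, 6919 and 7677 counts in poly(I:C) replicates 1, 2 and 3, against 2126, 1708 and 2644 counts in saline replicates 1, 2 and 3. On the scaled level this was 344.7, 204.5 and 220.7 CPM with poly(I:C) and 64.7, 49.3 and 77.9 CPM with saline. Each poly(I:C) library stood above each saline library, and poly(I:C) replicate 1 was the highest of the 6. Siglec1 averaged 256.6 ± 76.7 CPM in poly(I:C) and 64.0 ± 14.3 CPM in saline (SD, n = 3 each), a log2 difference of 2.00 (SE 0.25, edgeR adjusted p = 0.0183). By p-value it ranked 82 among the 14727 tested genes, and by log2 fold change 175. Without poly(I:C) replicate 3, saline replicate 2 or saline replicate 3 the edgeR call was lost, at log2 differences of 2.10, 1.84 and 2.17 and adjusted p of 0.0653, 0.061 and 0.0611. Without poly(I:C) replicate 1, the highest library, the difference was 1.76 (edgeR adjusted p = 0.0185), and without poly(I:C) replicate 1 and saline replicate 1 together it was 1.77 (edgeR adjusted p = 0.00396).

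**Figure D1:**
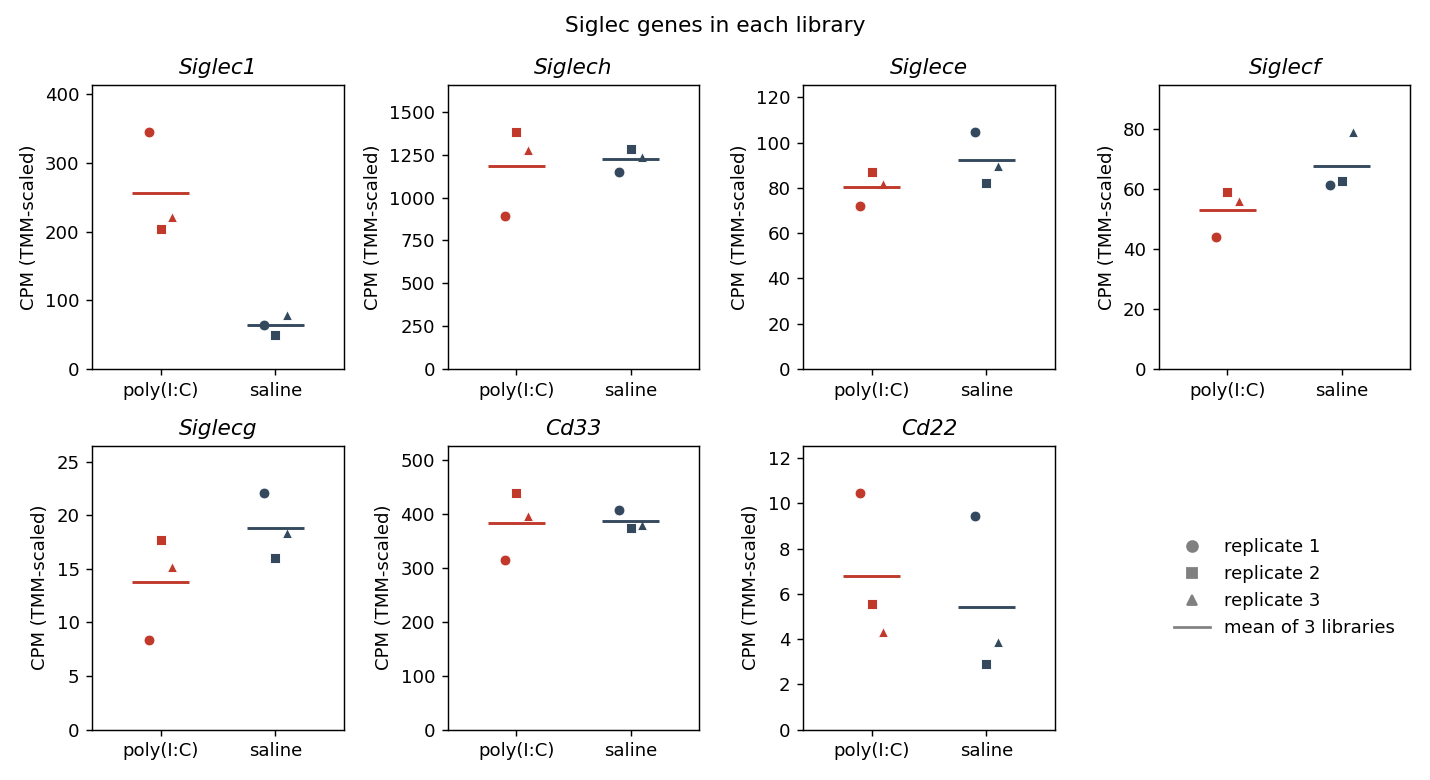
TMM-scaled CPM (y axis, from 0, a separate scale per gene) of the 7 Siglec genes in poly(I:C) and saline libraries, with a marker for each replicate and a line at the mean of 3. The 3 poly(I:C) libraries of Siglec1 lie between 204.5 and 344.7 CPM and the 3 saline libraries between 49.3 and 77.9 CPM, while the groups of the other members overlap or, for Siglecf, lie close together.

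Siglec1 is also a marker of border-associated macrophages, the macrophages of meninges, perivascular spaces and choroid plexus, so their transcripts were set beside it. The 14 markers, such as Mrc1 (the mannose receptor), Cd163 (the haemoglobin scavenger receptor) and Lyve1, all had counts, and their summed level was between 1582 and 2202 CPM in poly(I:C) and between 2114 and 2794 CPM in saline. None of the 14 was called in edgeR, and their median log2 difference was −0.21. At an unadjusted p under 0.05, 0 of the 14 were higher and 3 lower, where all tested genes had 10.5% higher and 10.8% lower. The smallest p-values were those of Stab1, the scavenger receptor stabilin-1 (log2 −0.62, edgeR adjusted p = 0.131), and Cd209f, a C-type lectin (log2 −1.07, edgeR adjusted p = 0.137). These and Mrc1 were chosen after their values were seen. Mrc1 had 461.7, 198.4 and 257.3 CPM with poly(I:C) in replicates 1, 2 and 3 and 416.4, 295.1 and 485.0 CPM in saline replicates 1, 2 and 3. Siglec1 rose, and the summed markers of these macrophages were in the same range or lower. Single markers went both ways. Lyve1 had a log2 difference of 0.23 (edgeR adjusted p = 0.685) and Cd163 one of −1.01 (edgeR adjusted p = 0.183), both also chosen after their values were seen. Whether the number of these macrophages differed was not tested. Stab1 was the largest part of the sum of the 14 markers, at 660.7 to 809.2 CPM in poly(I:C) and 934.8 to 1309 CPM in saline. Per 100 CPM of these markers, Siglec1 stood at 15.7, 12.7 and 13.96 CPM with poly(I:C) and at 2.84, 2.33 and 2.79 CPM with saline. The log2 ratio was 2.41 higher with poly(I:C) (exact permutation test, two-sided, p = 0.1, the smallest that 3 against 3 libraries can give). Siglec1 alone already separated the groups, and the marker sums were in the same range or lower with poly(I:C). The outcome of that test was therefore set beforehand, and it adds no evidence. With the mean log2 level of the 14 markers in place of their sum, that difference was 2.32. Per 1000 CPM of the microglial markers, Siglec1 stood at 10.03, 4.37 and 5.03 CPM with poly(I:C) and at 1.47, 1.00 and 1.53 CPM with saline. The groups did not overlap on either scale. The choroid plexus markers also had their highest sum in poly(I:C) replicate 1, the library with the most Siglec1, while saline replicate 2, with the highest choroid plexus sum of the saline libraries, had the least Siglec1. The part of choroid plexus tissue in the Siglec1 difference was not tested, nor which cells carried the added transcripts.

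**Figure D2:**
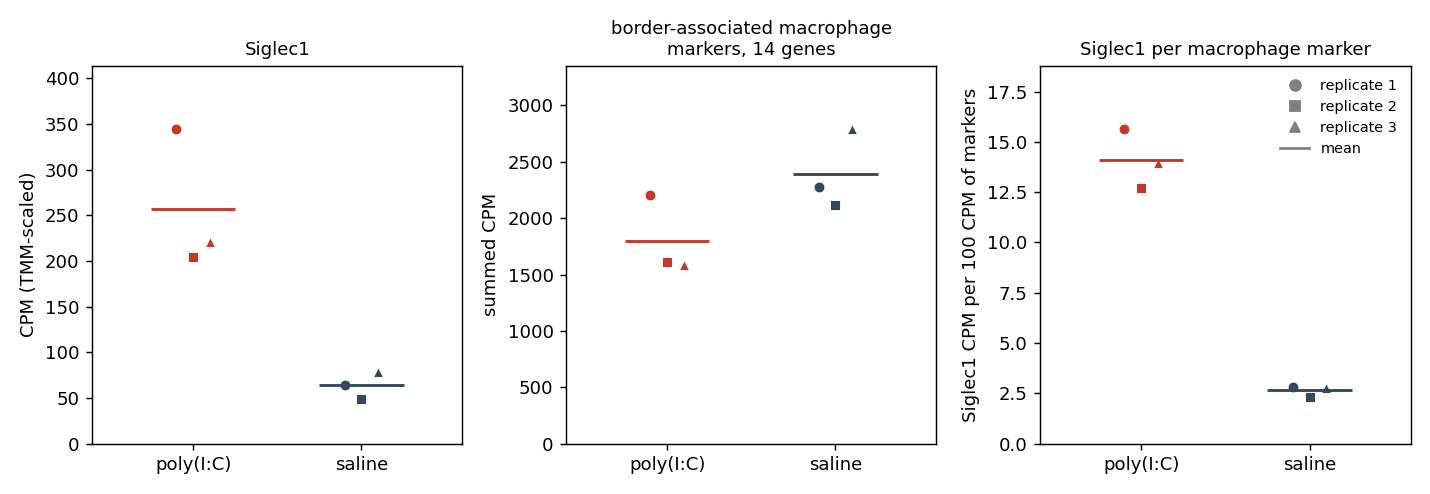
Siglec1 in TMM-scaled CPM (left), the summed CPM of 14 border-associated macrophage markers (middle) and Siglec1 CPM per 100 CPM of those markers (right), each axis from 0, for poly(I:C) and saline libraries with a line at the mean. The marker sums overlap between groups, while the ratio lies between 12.7 and 15.7 in poly(I:C) and between 2.33 and 2.84 in saline.

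Genes with a profile like that of Siglec1 over the 6 libraries were found by the Euclidean distance between centred log2(CPM + 0.5) values, among 10390 genes that averaged 5 CPM or more. The 3 nearest were Gbp2, a guanylate-binding protein (distance 0.407), Ifih1, the double-stranded RNA sensor MDA5 (0.412), and Parp14, an ADP-ribosyltransferase (0.525). Gbp2 had 36.3, 17.6 and 21.1 CPM with poly(I:C) and 7.24, 4.56 and 6.07 CPM with saline. Ifih1 averaged 90.0 ± 26.2 CPM with poly(I:C) and 22.9 ± 2.49 CPM with saline, and Parp14 414.5 ± 69.5 CPM with poly(I:C) and 113.1 ± 9.34 CPM with saline (SD, n = 3 each). All 3 had their highest value in poly(I:C) replicate 1, as Siglec1 did, a likeness that follows from choosing them by their profile. Of 19 tested genes of a type I interferon response list, 17 were called higher and 0 lower in edgeR, against 0.883% and 0.0747% of all tested genes. The median log2 fold change of the list was 3.37, against 0.01 over all tested genes. The 6 with the smallest p-values were Xaf1, Rtp4, Bst2, Irf7, Ifi44 and Stat2. Their log2 fold changes were 2.96, 3.37, 2.45, 3.97, 3.78 and 1.73 in that order. The value of 2.00 for Siglec1 was below the median of that list.

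**Figure D3:**
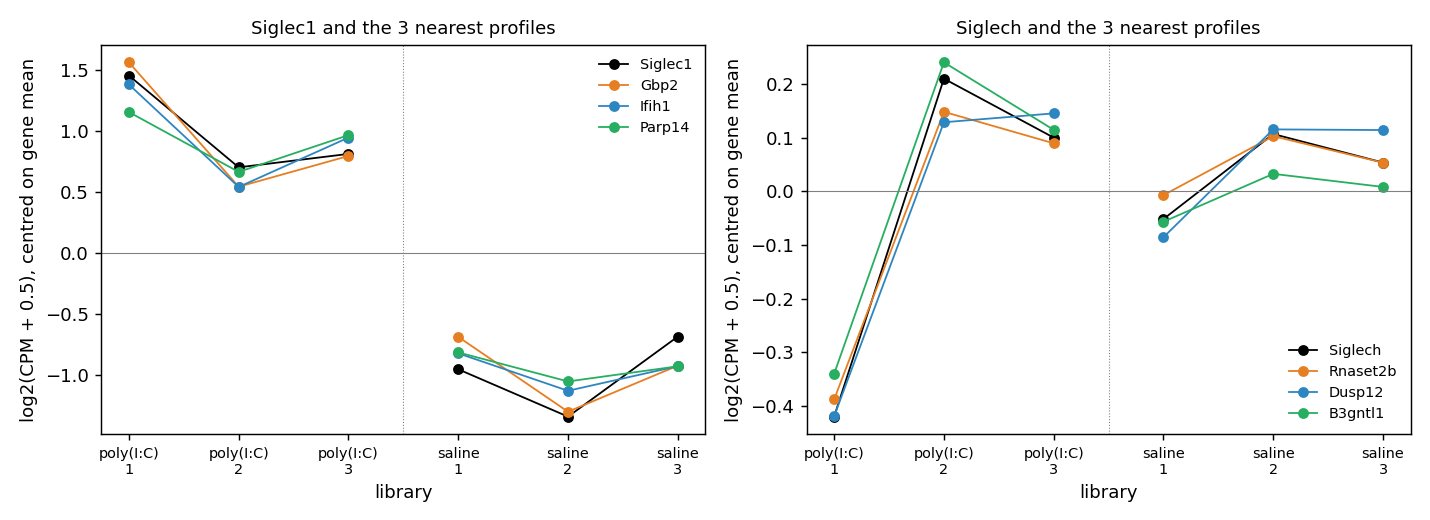
Centred log2(CPM + 0.5) (y axis) in the 6 libraries (x axis) for Siglec1 (left) and Siglech (right), each with the 3 genes of nearest profile, lines joining libraries of a group. Siglec1, Gbp2, Ifih1 and Parp14 are above their means in each poly(I:C) library and below them in each saline library, while Siglech and its neighbours are lowest in poly(I:C) replicate 1. The neighbours were chosen by these same profiles, so the likeness follows from the choice.

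Siglech had the highest level of the family and showed no difference beyond the spread of the libraries. It had 891.8, 1382 and 1280.1 CPM with poly(I:C) in replicates 1, 2 and 3, against 1152, 1286 and 1239 CPM in saline replicates 1, 2 and 3. Poly(I:C) replicate 1 was the lowest of the 6, and the other 2 poly(I:C) libraries lay within or above the saline range. The log2 difference was −0.05 (SE 0.17, 95% interval −0.46 to 0.36, edgeR adjusted p = 0.884), and without poly(I:C) replicate 1 it was 0.14 (edgeR adjusted p = 0.537). Poly(I:C) replicate 1 also had the lowest sum of microglial markers. Per 1000 CPM of those markers Siglech stood at 25.9, 29.6 and 29.2 CPM with poly(I:C) and at 26.1, 26.1 and 24.3 CPM with saline, ranges that overlap. Siglech is also made by plasmacytoid dendritic cells. Of their 10 markers 6 were tested and 0 called in edgeR, with 0 higher and 2 lower at an unadjusted p under 0.05. The median log2 difference was −0.57. Most of their marker sum was Tcf4, and the part of these cells in the Siglech level was not tested. The nearest profiles were those of Rnaset2b (distance 0.0836), Dusp12 (0.117) and B3gntl1 (0.123).

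Cd33, whose human counterpart lies at a locus tied to the risk of Alzheimer's disease, followed as the second most abundant member. It had 314.9, 439.2 and 396.3 CPM with poly(I:C) in replicates 1, 2 and 3, against 407.3, 374.3 and 379.2 CPM in saline replicates 1, 2 and 3. The poly(I:C) libraries spanned the whole saline range, with replicate 1 lowest and replicate 2 highest. The log2 difference was −0.01 (SE 0.13, 95% interval −0.33 to 0.30, edgeR adjusted p = 0.962), an interval that runs from 0.798-fold to 1.23-fold.

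Siglece, an inhibitory receptor of neutrophils, monocytes and microglia, had 72.1, 87.2 and 81.9 CPM with poly(I:C) in replicates 1, 2 and 3, against 104.6, 82.2 and 89.7 CPM in saline replicates 1, 2 and 3. The groups overlapped, with the highest value in saline replicate 1, the library with the highest neutrophil marker sum. The log2 difference was −0.20 (SE 0.12, edgeR adjusted p = 0.346), and with replicate 1 of both groups left out it was 0.00 (edgeR adjusted p = 0.996). The part of neutrophil transcripts in the Siglece level was not tested.

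Siglecf, known as an inhibitory receptor of eosinophils and alveolar macrophages, had 44.0, 58.8 and 56.0 CPM with poly(I:C) in replicates 1, 2 and 3, against 61.2, 62.6 and 78.8 CPM in saline replicates 1, 2 and 3. Each poly(I:C) library was below each saline library, but the difference did not pass the test (log2 −0.35, SE 0.15, unadjusted p = 0.0516, edgeR adjusted p = 0.237). Its sign was negative in each of 15 alternative fits, with values from −0.44 to −0.21, all drawn from the same 6 libraries. Relative to 1000 CPM of the summed microglial markers, Siglecf ranged from 1.257 to 1.280 CPM with poly(I:C). With saline it ranged from 1.272 to 1.545 CPM, so the groups overlapped on that scale. The sum of eosinophil markers was highest in saline replicate 1, and the part of eosinophil transcripts in the Siglecf level was not tested.

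Siglecg, an inhibitory receptor of B cells that binds CD24, had 8.41, 17.7 and 15.2 CPM with poly(I:C) in replicates 1, 2 and 3, against 22.1, 16.0 and 18.4 CPM in saline replicates 1, 2 and 3. The groups overlapped and the lowest value was that of poly(I:C) replicate 1. The log2 difference of −0.45 (SE 0.28, edgeR adjusted p = 0.362) moved to −0.04 with replicate 1 of both groups left out (edgeR adjusted p = 0.906). Its transcripts share 4.64% of their distinct 50-base words with other annotated genes, mostly with the predicted gene Gm29791, which had at most 2 counts in any library.

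Cd22, an inhibitory co-receptor of B cells that has also been described on mouse microglia, was the least abundant member, with 10.46, 5.56 and 4.31 CPM with poly(I:C) in replicates 1, 2 and 3, against 9.43, 2.89 and 3.89 CPM in saline replicates 1, 2 and 3. The first replicate was the highest in both groups, and the groups overlapped. The log2 difference was 0.33 (SE 0.53, 95% interval −0.92 to 1.58, edgeR adjusted p = 0.73), the widest interval of the family, and its sign turned without poly(I:C) replicate 1, at −0.11 (edgeR adjusted p = 0.944). The sum of 10 B cell markers was between 13.7 and 16.4 CPM in poly(I:C) and between 14.4 and 27.7 CPM in saline, and the part of B cells in the Cd22 and Siglecg levels was not tested. In GENCODE M21, exons of Cd22 overlap those of Gm29439 on the opposite strand, and 7.84% of the 50-base words of Cd22 occur in other genes. The library kit does not mark strand, so reads of the pair cannot be told apart and those of Cd22 are less certain than those of Siglec1 (1.33%), Cd33 (0.46%), Siglech (0.39%), Siglecf (0.21%) and Siglece (0%).

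By the same distance the gene nearest to Siglece was Ap1s1 (0.0535), to Cd33 Alg1 (0.0652), to Siglecf Eif2b1 (0.0983), to Siglecg Parvg (0.237) and to Cd22 Wfdc17 (0.346). These likenesses over 6 libraries are a description.

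**Figure D4:**
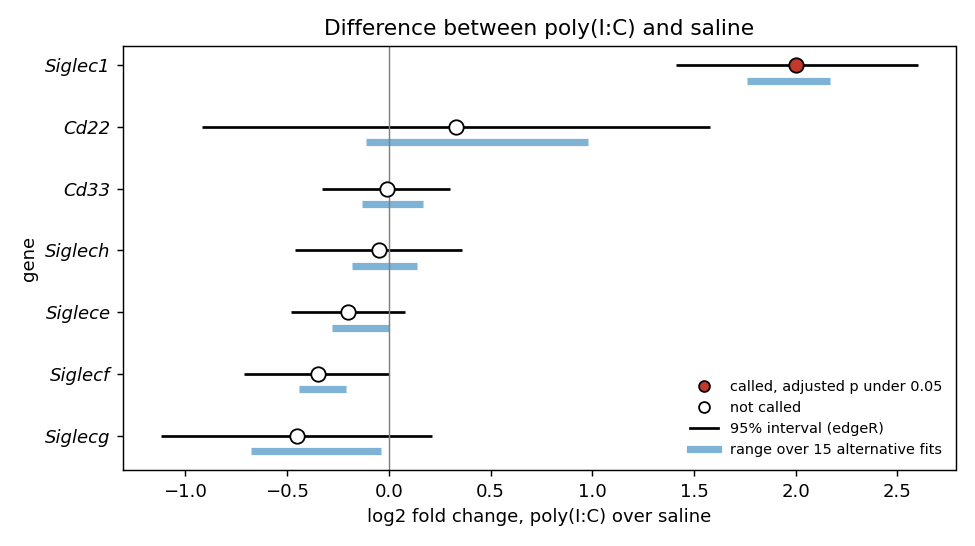
Log2 fold change of poly(I:C) over saline (x axis) for each Siglec gene, with the 95% interval of the edgeR fit as a black line and the range over 15 alternative fits as a blue bar. Siglec1 lies at 2.00 with all values above 1, while the intervals of the other 6 members reach or cross 0.

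Levels of different members were compared per kilobase of coding length, taken from the longest coding transcript in GENCODE M21 (from 996 bases for Siglech to 5103 bases for Siglec1). Untranslated sequence was left out of this divisor, and the members differ in it. The transcripts of Cd33 held 7864 distinct 50-base words for 1209 coding bases, and those of Siglece 1848 for 1401. The order per full transcript length was not tested and may differ. In saline the order was Siglech (1231 ± 68.3), Cd33 (320.0 ± 14.7), Siglece (65.8 ± 8.15), Siglecf (39.6 ± 5.75), Siglec1 (12.5 ± 2.81), Siglecg (9.13 ± 1.47) and Cd22 (2.07 ± 1.35), in CPM per kilobase (SD, n = 3). Of these neighbours Siglec1 and Siglecg overlapped, at 9.66 to 15.3 and 7.78 to 10.7 CPM per kilobase, and the others did not. With poly(I:C) Siglec1 stood at place 4, against place 5 in saline, at 50.3 ± 15.0 CPM per kilobase, with a range of 40.1 to 67.5 that overlapped that of Siglece (51.4 to 62.3) and lay above that of Siglecf (25.8 to 34.4). The places of Siglech, Cd33, Siglece, Siglecg and Cd22 were the same in both groups. Within the summed counts of the family, Siglec1 made up 20.4%, 9.32% and 10.7% in poly(I:C) replicates 1, 2 and 3, against 3.55%, 2.63% and 4.13% in saline replicates 1, 2 and 3. Without Siglec1 the family sum was between 1342 and 1990.1 CPM in poly(I:C) and between 1757 and 1824 CPM in saline.

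**Figure D5:**
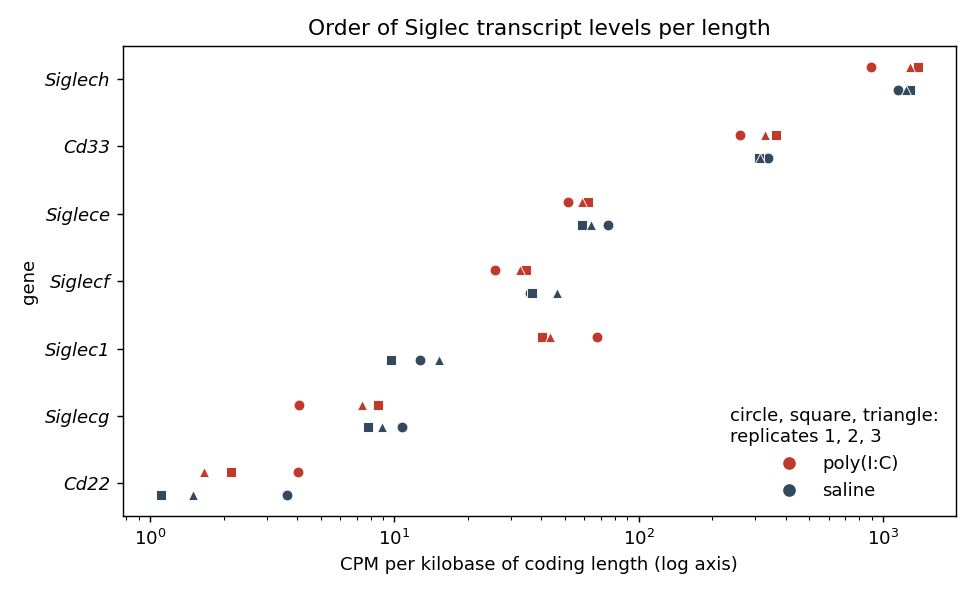
CPM per kilobase of coding length (log axis) of each Siglec gene, poly(I:C) libraries above saline libraries, ordered by the saline mean. Siglec1 lies between 40.1 and 67.5 in poly(I:C) and between 9.66 and 15.3 in saline, and Siglech is the highest gene in each library.

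Genes that act with Siglecs were described by lists. Of 21 tested adaptor, kinase and phosphatase genes, 0 were called in edgeR, with 1 higher and 8 lower at an unadjusted p under 0.05, where all tested genes had 10.5% higher and 10.8% lower. The median log2 difference was −0.25, against 0.01 over all tested genes. DESeq2 called 2 of them lower and limma-voom 2 higher and 8 lower. Of all 14727 tested genes DESeq2 called 566 lower, and limma-voom 1268 higher and 1608 lower. The smallest p-values were those of the adaptor Grb2, at 193.9 ± 7.62 CPM in poly(I:C) and 236.1 ± 6.14 CPM in saline (edgeR adjusted p = 0.14), and the kinase Syk, at 398.1 ± 28.8 CPM in poly(I:C) and 509.6 ± 26.4 CPM in saline (edgeR adjusted p = 0.147). Tyrobp, which encodes DAP12, and Ptpn6, which encodes SHP-1, were chosen after their values were seen. Tyrobp had log2 −0.23 (edgeR adjusted p = 0.482) and Ptpn6 had log2 −0.28 (edgeR adjusted p = 0.212).

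Genes that make, attach or remove sialic acid were not called in edgeR. The synthesis and transport list had 0 of 10 tested members called, with 1 higher and 1 lower at an unadjusted p under 0.05, a share near the 21.3% of all tested genes, and a median of −0.13. DESeq2 called 1 of them lower and limma-voom 1 in each direction. Among all 14727 tested genes these tools called 577 (DESeq2) and 1268 (limma-voom) higher, and 566 and 1608 lower. Its smallest p-values were those of Renbp, the renin-binding protein, at 65.5 ± 6.15 CPM in poly(I:C) and 85.7 ± 8.33 CPM in saline (edgeR adjusted p = 0.157), and Slc35a1, the transporter of CMP-sialic acid into the Golgi, at 40.4 ± 4.55 CPM in poly(I:C) and 31.4 ± 1.52 CPM in saline (edgeR adjusted p = 0.17). Of 14 tested sialyltransferases 0 were called, with 1 higher and 2 lower at an unadjusted p under 0.05, again near 21.3%, and DESeq2 and limma-voom each called 1 higher and 2 lower. St6gal1, which adds the sialic acid linkage that CD22 prefers, had 59.7, 60.7 and 58.5 CPM with poly(I:C) in replicates 1, 2 and 3, against 75.3, 80.2 and 96.5 CPM in saline replicates 1, 2 and 3 (log2 −0.49, SE 0.11, edgeR adjusted p = 0.112). The groups of St6gal1 did not overlap. St3gal2, which makes the other common linkage, had a log2 difference of −0.44 (SE 0.10, edgeR adjusted p = 0.12).

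The list of sialidases and sialate esterases had 0 of 5 tested members called in edgeR. At an unadjusted p under 0.05, 0 of the 5 were higher and 1 lower, where all tested genes had 10.5% higher and 10.8% lower. DESeq2 called 0 and limma-voom 1 lower, where limma-voom called 1608 of all 14727 tested genes lower. Ctsa, the protective protein of the lysosomal sialidase, stood at 952.3 ± 170.6 CPM in poly(I:C) and 1282 ± 90.5 CPM in saline (edgeR adjusted p = 0.195). Neu1, that sialidase, had 79.4, 87.7 and 80.1 CPM with poly(I:C) and 112.4, 85.6 and 98.1 CPM with saline (edgeR adjusted p = 0.24).

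Of 9 tested genes for sialylated proteins that Siglecs bind, 1 was called higher and 0 lower in edgeR, against 0.883% and 0.0747% of all tested genes. The called gene was Lgals3bp, a secreted glycoprotein, with 1028, 1177 and 1038 CPM with poly(I:C) in replicates 1, 2 and 3, against 230.04, 194.4 and 207.8 CPM in saline replicates 1, 2 and 3 (5.13-fold, edgeR adjusted p = 0.000698). At an unadjusted p under 0.05, 2 of the 9 were higher and 0 lower, where all tested genes had 10.5% higher and 10.8% lower. The median log2 difference of the list was −0.01. Other genes with a Siglec symbol or name lay outside the 7 symbols. Mag, the myelin-associated Siglec of oligodendrocytes, had 20.6, 32.6 and 23.9 CPM in poly(I:C) and 29.0, 31.8 and 32.2 CPM in saline (log2 −0.27, edgeR adjusted p = 0.384). Siglecl1, chosen after its values were seen and listed by RefSeq as a synonym of Siglece though it has a row of its own here, had between 3 and 14 counts in a library and was not tested.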

How the data were processed

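Raw read counts per gene symbol were deposited by the authors, with 1 column per library and 6 libraries, neither normalised nor pooled. Full-length cDNA was amplified before tagmentation, per the labels' protocols, and no molecular identifiers are mentioned, so counts are of reads. Per the submitters' processing notes, fastp, HISAT2 and HTSeq were used with GRCm39, with versions, strand setting and annotation not given in the sources used here.

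Poly(I:C) was compared with saline in edgeR 4.0.16 (R 4.3.3) after filterByExpr and TMM scaling, with glmQLFit and glmQLFTest, no covariate and all 6 libraries. The calling threshold was a p of 0.05 after Benjamini-Hochberg adjustment over 14727 tested genes. Standard errors were derived from the log2 fold change and the F statistic. CPM used the TMM-scaled totals of tested genes. No pair of replicates matched within sampling noise (chi-square from 22.7 to 125 per gene). The members, the 16 gene lists and the named-gene rule (all members, up to 6 called or otherwise the 2 smallest p per context list, Fmr1 and nearest profiles) were chosen with earlier results of these data known. Of 187 list entries 6 had no row. The scripts were tested on simulated data. Alternatives included DESeq2 1.42.0 and limma 3.58.1. Sharing of 50-base words was counted over GENCODE M21 transcripts on both strands.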

Additional observations from a re-analysis of the deposited data

How the results depend on the processing

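In 15 alternative fits the log2 difference of Siglec1 was between 1.76 and 2.17, and the call was kept in 12. Fits that left out 1 library gave between 0 and 1 Siglec genes called higher and 0 lower. The signs of the members near 0 were not stable. Siglech was at 0.02 with library totals only, 0.02 with limma-voom, 0.10 without replicate 1 of each group, and between −0.18 and 0.14 when 1 library was left out, with 0.14 without poly(I:C) replicate 1. Cd33 was at 0.04 with upper-quartile scaling, 0.06 with library totals only, 0.02 with a filter of 5 CPM, 0.05 with limma-voom and 0.17 without replicate 1 of each group, and between −0.13 and 0.13 when 1 library was left out (0.13 without poly(I:C) replicate 1 and 0.02 without saline replicate 1). Siglece was at 0.00 without replicate 1 of each group, and Cd22 between −0.11 (without poly(I:C) replicate 1) and 0.98 when 1 library was left out. The cause was not tested.

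Over all genes, edgeR called 130 higher and 11 lower. DESeq2 called 577 and 566, limma-voom 1268 and 1608, and the fit without replicate 1 of each group 355 and 214, while 18 were lower with no filter. Leaving out 1 library gave between 51 and 167 higher and between 0 and 20 lower. With the replicate number as a block, 1 Siglec gene was higher and 0 lower, and 89 of all genes were lower. Same-numbered libraries had correlations of their deviations between −0.0907 and 0.246, and not every library correlated best with its own number, so the numbers were not taken as pairs.

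In the lists the adaptor genes had 2 lower in DESeq2, and 2 higher and 8 lower in limma-voom. The synthesis genes had 1 lower in DESeq2, and 1 in each direction in limma-voom. The sialyltransferases had 1 higher and 2 lower in both tools, 1 higher without saline replicate 1, and 1 in each direction without replicate 1 of each group. Leaving out 1 library gave between 0 and 1 higher sialyltransferases. The sialidase list had 1 lower in limma-voom. The ligand list had 2 higher and 1 lower without replicate 1 of each group. The interferon list had between 11 and 18 higher when 1 library was left out. The Siglec1 ratio to macrophage markers was between 2.32 and 2.48 in fits leaving out 1 library and 2.32 with mean log2 marker levels. Without length the members' order in saline was the same, whereas with poly(I:C) Siglec1 stood at place 3 by CPM. The libraries leave effects within the printed intervals undecided.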
